A study of Mus musculus with 10 samples.

Results

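The CREB family and its coactivators were followed in the mouse hippocampus through every non-control array probe whose gene name was Creb1, Crem, Atf1, Atf2, Atf4, Crebbp, Ep300 or Crtc1. This gave 25 probes of 7 genes, out of 41174 non-control probes with 27376 gene names. Crtc1 named no probe and is not analysed here. Of the 25 probes, 23 entered the test, because in at least 1 group 3 or more of its 5 arrays held them well above background. Gene expression had been measured on 1-colour Agilent arrays in total RNA of the hippocampus from 10 adult animals of the outbred ICR stock, all labelled male. The 5 animals of the high estradiol group (HE) were offspring of dams dosed by mouth with estradiol valerate, a prodrug of estradiol, in corn oil at 100 µg/kg/day from embryonic day E5.5 through E11.5. The 5 animals of the control group (NC) came from dams that had corn oil alone. The labels name no litters, so a p-value here reflects only how these animals varied. Levels are log2 signals relative to each array's 75th percentile, and a fold change is the HE mean minus the NC mean on that scale.

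CREB is a transcription factor that binds the cAMP response element, with the letters TGACGTCA, as a leucine-zipper dimer. Kinases driven by cAMP, calcium and growth factors phosphorylate it, after which it recruits the coactivators CBP (gene Crebbp) and EP300, which acetylate histones. In hippocampal neurons this route is known for the activity-dependent transcription that long-term memory needs. CREM and ATF1 are the closest relatives of CREB, ATF2 pairs with JUN proteins, and ATF4 drives the amino acid and stress response.

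The arrays lay on 3 slides: HE 1, HE 2 and NC 5 on slide 2, HE 3 to HE 5 on slide 3, and NC 1 to NC 4 on slide 1. Slide 2 therefore holds the only comparison within a slide, and a fit with slide as a block gives the same differences as slide 2 alone. The 75th percentile of the signal ran from 899 to 1289, and 70.3% to 78.9% of probes per array were well above background. All 15 hippocampal neuron markers were well above background on every array, and their summed linear signal was 70.5 to 98.2 times the 75th percentile in HE, against 51.0 to 70.8 in NC. Of 20 thalamus and habenula markers, 12 fell in HE and 0 rose, with sums of 18.8 to 49.7 in HE and 50.9 to 123 in NC, and 17 to 20 of them were well above background per array. Of 17 myelin markers, 11 fell and 0 rose, with sums of 279 to 360 in HE and 471 to 607 in NC. Of 9 liver markers, 5 fell in HE; Alb, the serum albumin gene, was at 0.50, 0.44 and -0.23 on NC 1, NC 2 and NC 4, and between -8.77 and -4.82 on the other 7 arrays. Of 9 astrocyte markers, 2 fell and 0 rose, with sums of 272 to 316 in HE and 335 to 398 in NC. Of 9 microglia markers 1 rose, and of 9 choroid plexus markers 0 passed in limma (0 at an unadjusted p under 0.05). The part of these differences in tissue content in the results below was not tested, and in bulk tissue fewer cells of a type and less RNA per cell cannot be told apart. Xist lay at 3.20 to 4.44 on HE 1 to HE 3 and NC 1 to NC 4, where the Y-linked Ddx3y lay at -9.32 to -5.54, so that 7 arrays did not match the male label. Slide 2 sets HE 1 and HE 2, both with high Xist, against NC 5 with low Xist, a difference of 7.95 for Xist itself. Within that slide treatment and the Xist pattern therefore cannot be told apart. NC 5 also had the lowest hippocampal neuron sum (51.0) and the highest thalamus and habenula (123) and astrocyte (398) sums of all arrays. Its tissue content and treatment cannot be told apart within slide 2 either.

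Of 3 Creb1 probes, 2 fell in HE. In contrast, 4 of 6 Crem probes, 2 of 3 Atf1 probes, 2 of 4 tested Atf2 probes and 2 of 3 Crebbp probes rose. In all, 10 of the 23 probes were higher and 3 lower at a limma adjusted p under 0.05. Over all 30981 tested probes, 8.2% were higher and 14.7% lower, 22.9% in all. For 7 member probes all HE arrays lay above all NC arrays, and for 2 below, where 6.58% of all probes lay above and 17.3% lay above or below. The median log2 fold change was 0.23 over the 23 probes and -0.04 over all probes. Probes of 1 gene share their target, so that the 4 Crem calls are not 4 separate results. With slide as a block, 0 of the 23 probes passed in limma and 5 had an unadjusted p under 0.05. Over all 30981 probes this fit called 0.781%, and 7061 had an unadjusted p under 0.05, so these counts do not set the members apart. On slide 2 alone, where NC 5 is the only control, 17 of the 23 were positive, with a median of 0.31 against -0.12 over all probes. With 1 control array, no count of passing probes can set the members apart there. The count of 13 also moved by over 1.5 times in other settings: 6 with normexp background correction (2 higher and 4 lower), 8 with no filter on dim probes, 0 with slide and high Xist together (1 at an unadjusted p under 0.05), 2 without NC 1, NC 2 and NC 4, 0 on the 7 arrays with high Xist (12 at an unadjusted p under 0.05), 4 without HE 1 or NC 2, 5 without HE 3, 6 without NC 5, and 8 without HE 5 or NC 1. Over all tested probes, normexp called 7.7% higher and 37.9% lower. No filter on dim probes called 15%, and leaving out NC 1, NC 2 and NC 4 called 9.18%. The fits without HE 1, HE 3, HE 5, NC 1, NC 2 or NC 5 called 12.1% to 21.3%. The 7 arrays with high Xist called 0.281% (8596 probes at an unadjusted p under 0.05). With slide and high Xist together 0 of all probes passed (4142 at an unadjusted p under 0.05). The plot of fold changes by probe shows the genes side by side.

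**Figure D1:**
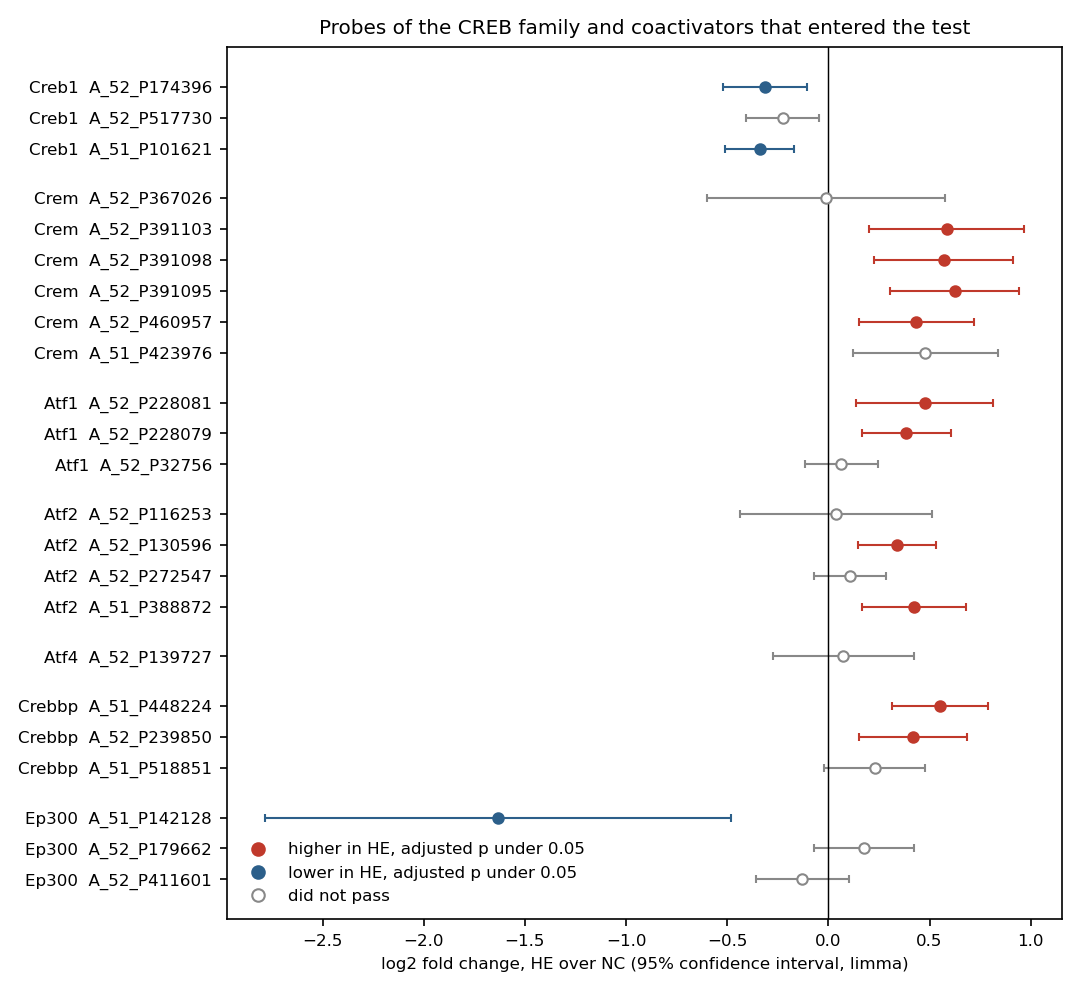
Log2 fold change of HE over NC for the 23 tested probes, 1 row per probe grouped by gene; points are limma estimates, bars their 95% confidence intervals, and filled points passed at an adjusted p under 0.05. The 3 Creb1 probes lie left of 0, from -0.34 to -0.23, and 5 of the 6 Crem probes lie right of it, from 0.43 to 0.62, while the dim Ep300 probe A_51_P142128 at -1.63 has the widest interval.

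Creb1 encodes CREB itself. Its brightest probe, A_51_P101621 (chr1:64648229-64648288, plus strand, mm9), read log2 signals of 0.79, 0.76, 0.66, 0.81 and 0.68 on HE 1 to HE 5, against 1.17, 1, 1.08, 1.01 and 1.13 on NC 1 to NC 5. Every HE array lay below every NC array. The group means were 0.74 ± 0.07 in HE and 1.08 ± 0.07 in NC (SD, n = 5 each), a log2 fold change of -0.34 ± 0.08 (SE), or 0.79 of the NC level (adjusted p = 0.0157). This probe is printed 10 times on each array, and the SD between its spots was 0.046 to 0.082 log2 within an array. It passed with each array left out in turn, with adjusted p between 0.0177 and 0.0369. Scaling to the median in place of the 75th percentile put the median of all probes at 0.14, against -0.04 with the 75th percentile, and gave Creb1 a log2 fold change of -0.15 (adjusted p = 0.214). Within slide 2 the difference was -0.35 (adjusted p = 0.227 with slide as a block). Under normexp background correction it was -0.24 (adjusted p = 0.0644), above the median of all probes in that setting, -0.41.

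A second Creb1 probe, A_52_P174396 (chr1:64643886-64643945, plus strand, mm9), read -2.76, -2.53, -2.75, -2.72 and -2.92 in HE, against -2.32, -2.42, -2.54, -2.51 and -2.33 in NC. Its log2 fold change was -0.31 ± 0.09 (adjusted p = 0.0384), and HE 2 lay just inside the NC range. Leaving out any of 7 arrays (HE 1, HE 3, HE 4, HE 5, NC 1, NC 2 or NC 5) ended this call, at fold changes of -0.32 to -0.27, and within slide 2 it was -0.32 (adjusted p = 0.319 with slide as a block). The remaining probe, A_52_P517730 (chr1:64644633-64644692), read -3.39, -3.36, -3.31, -3.48 and -3.48 in HE, against -3.20, -3.31, -3.03, -3.17 and -3.18 in NC; the groups did not overlap, but it did not pass (-0.23 ± 0.08, adjusted p = 0.0695). With median scaling these 2 probes were at -0.13 (A_52_P174396, adjusted p = 0.336) and -0.04 (A_52_P517730, adjusted p = 0.808). In a test of each probe's change against the mean of its gene's other probes, 19.8% of 18218 probes passed, and none of the 3 Creb1 probes did (adjusted p = 0.42 to 0.816).

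The probe A_52_P174396 is close in sequence to a probe of Atf1 that changed in the other direction, and the pair is shown for that reason. In their best alignment without gaps, 35 of 46 overlapping bases were identical, and the capitals mark the runs of 6 or more identical bases (20 in all). Both are given 5′ to 3′ as printed on the array.
Creb1 A_52_P174396: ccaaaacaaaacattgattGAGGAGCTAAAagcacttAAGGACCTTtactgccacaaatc
Atf1 A_52_P228081: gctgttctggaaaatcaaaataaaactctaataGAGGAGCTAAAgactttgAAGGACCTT
The Creb1 probe also matched Crem probe A_52_P391103 at 44 of 57 overlapping bases. With the processed signal the Creb1 probe was lower in HE and the Crem and Atf1 probes were higher, the Atf1 probe turning to -1.11 under normexp; how much of each signal came from the other transcripts was not tested.

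CREM binds the same element as CREB, and its gene yields activators as well as repressors, among them the cAMP-induced repressor ICER. Crem has 6 probes on the array, on chromosome 18 (minus strand). The probe A_52_P391095 read 0.29, 0.10, 0.46, -0.17 and 0.04 on HE 1 to HE 5, against -0.30, -0.61, -0.20, -0.57 and -0.71 on NC 1 to NC 5. The lowest HE array, HE 4, lay just above the highest NC array, NC 3. The log2 fold change was 0.62 ± 0.14, or 1.54-fold (adjusted p = 0.0169), and it passed with each array left out in turn, between 0.55 and 0.70. Within slide 2 it was 0.91 (adjusted p = 0.132 with slide as a block).

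The brightest Crem probe, A_52_P460957, read 0.40, 0.32, 0.49, -0.10 and 0.17 in HE, against -0.10, -0.30, 0.06, -0.31 and -0.23 in NC. HE 4 lay within the NC range and the other 4 HE arrays above it. The means were 0.26 ± 0.23 in HE and -0.18 ± 0.16 in NC (SD, n = 5 each), a log2 fold change of 0.43 ± 0.13 (adjusted p = 0.0364). This call was lost without any of 7 arrays (HE 1, HE 2, HE 3, HE 5, NC 2, NC 4 or NC 5), at fold changes of 0.37 to 0.46. Probes A_52_P391098 and A_52_P391103 also rose, by 0.57 ± 0.15 (adjusted p = 0.0274) and 0.58 ± 0.17 (adjusted p = 0.036) in HE. The first call was lost without HE 1, HE 2, HE 3, NC 2 or NC 5 (0.49 to 0.57), and the second without HE 1, HE 2, HE 3, NC 1, NC 2, NC 4 or NC 5 (0.50 to 0.60). Within slide 2 the 3 probes differed by 0.59, 0.85 and 0.97 (A_52_P460957, A_52_P391098, A_52_P391103), with adjusted p of 0.227, 0.169 and 0.151 with slide as a block. Under normexp A_52_P391098 was at 0.32 (adjusted p = 0.112) and A_52_P391103 at 0.071 (adjusted p = 0.814).

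The probe A_51_P423976 read 0.38, 0.36, 0.63, -0.26 and 0.11 in HE, against -0.19, -0.40, 0.02, -0.27 and -0.33 in NC, and missed the threshold (0.48 ± 0.16, adjusted p = 0.0554). On all 6 Crem probes, HE 3 was the highest HE array and HE 4 the lowest or next to lowest. The dim probe A_52_P367026, listed on another Crem transcript and well above background on 3 HE and 2 NC arrays, had a log2 fold change of -0.01 ± 0.26 (95% interval -0.60 to 0.57). Its change relative to the other Crem probes was -0.55 and did not pass (adjusted p = 0.084).

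**Figure D2:**
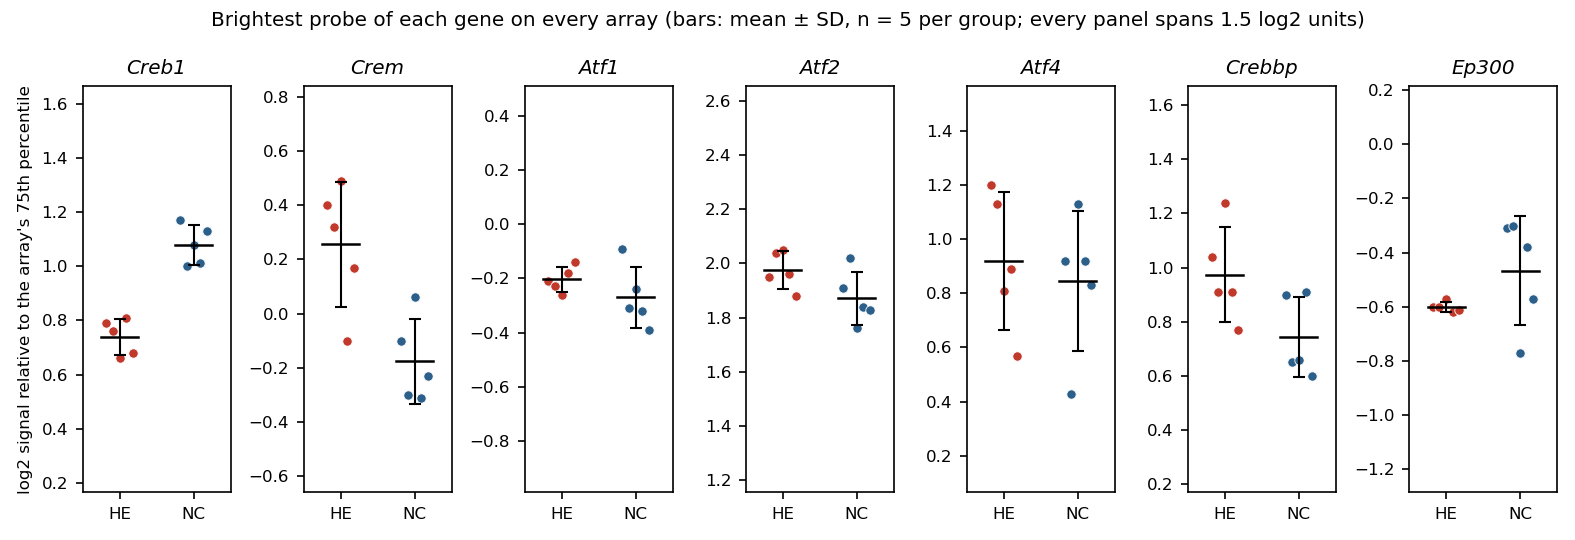
Log2 signal of the brightest probe of each of the 7 genes on every array, HE left and NC right in each panel, with the group mean and SD (n = 5 each); all panels span the same height. For Creb1 the 5 HE arrays (0.66 to 0.81) lie below the 5 NC arrays (1 to 1.17); for Crem the groups overlap through HE 4 (-0.10) and NC 3 (0.06).

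When each gene was represented by its brightest entering probe, 2 of the 7 genes passed, Creb1 lower and Crem higher. Over all 20086 genes, 20.1% passed, 6.82% higher and 13.3% lower. The pair was then set side by side within arrays, as a description with no test, because it was picked for its opposite calls. The Crem signal minus the Creb1 signal was -0.40, -0.44, -0.17, -0.90 and -0.51 on HE 1 to HE 5, against -1.27, -1.30, -1.03, -1.32 and -1.35 on NC 1 to NC 5. All HE arrays lay above all NC arrays, by a mean of 0.77, and on slide 2 HE 1 and HE 2 lay above NC 5. Since Creb1 itself was lower in HE, the median of this difference over all genes was 0.30, and for 27.3% of genes all HE arrays lay above all NC arrays. Among the members this also held for Atf1, Atf2 and Crebbp (by 0.40, 0.45 and 0.57), so it is not particular to Crem. For Atf4 and Ep300 the groups overlapped.

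ATF1 is a close relative of CREB that can pair with it. The probe A_52_P228079 (chr15:100090547-100090606, plus strand, mm9) read -2.75, -2.72, -2.52, -2.92 and -2.78 in HE, against -3.24, -3.22, -2.94, -3.06 and -3.16 in NC. The groups did not overlap, and the log2 fold change was 0.39 ± 0.10 (adjusted p = 0.0236). The probe A_52_P228081 (chr15:100090310-100090369, mm9) read -4.92, -4.85, -4.54, -5.00 and -4.90 in HE, against -5.73, -5.27, -5.09, -5.50 and -5.00 in NC, with HE 4 and NC 5 equal to 2 decimals (0.48 ± 0.15, adjusted p = 0.0472). The first call was lost without HE 1 (0.39) or NC 2 (0.36), and the second without any of 8 arrays, that is all but NC 3 and NC 5 (0.37 to 0.52). The brightest Atf1 probe, A_52_P32756, read -0.21, -0.23, -0.26, -0.18 and -0.14 in HE, against -0.09, -0.31, -0.24, -0.32 and -0.39 in NC, and did not pass (0.06 ± 0.08, 95% interval -0.12 to 0.25). Its change against the other Atf1 probes was -0.37 and did not pass (adjusted p = 0.0906). Within slide 2 the 2 called probes differed by 0.42 (A_52_P228079, adjusted p = 0.265 with slide as a block) and 0.12 (A_52_P228081, adjusted p = 0.831). With normexp background correction both called Atf1 probes turned negative, to -0.47 (A_52_P228079) and -1.11 (A_52_P228081).

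ATF2 binds the cAMP response element mostly with JUN proteins and is activated by stress kinases. Probe A_52_P130596 is shown here because it passed with each array left out in turn.
Atf2 A_52_P130596 (chr2:73666533-73666592, minus strand, mm9): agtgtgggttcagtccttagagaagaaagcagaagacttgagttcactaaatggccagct
It read -1.37, -1.30, -1.09, -1.39 and -1.31 in HE, against -1.59, -1.62, -1.72, -1.52 and -1.70 in NC, with no overlap (0.34 ± 0.09, adjusted p = 0.0225). The probe A_51_P388872 (chr2:73655411-73655470) read -0.90, -0.96, -0.68, -0.88 and -0.90 in HE, against -1.44, -1.58, -1.07, -1.11 and -1.23 in NC, also with no overlap (0.42 ± 0.12, adjusted p = 0.029), but lost its call without HE 1, HE 3, HE 4, HE 5, NC 1, NC 2 or NC 5 (0.35 to 0.43). The brightest probe, A_52_P272547 (chr2:73655713-73655772), did not pass, at means of 1.98 ± 0.07 in HE and 1.87 ± 0.10 in NC (0.11 ± 0.08, adjusted p = 0.358), nor did A_52_P116253 (0.04 ± 0.21, adjusted p = 0.919). None of the 4 passed in its change against the other Atf2 probes (adjusted p = 0.22 to 0.414). Within slide 2 the 2 called probes differed by 0.37 (A_52_P130596, adjusted p = 0.25 with slide as a block) and 0.31 (A_51_P388872, adjusted p = 0.467). Under normexp A_52_P130596 turned to -0.091. A further Atf2 probe, A_52_P86665, designed on a cDNA record, was well above background on HE 1 only and did not enter.

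ATF4 is controlled largely at translation, so its mRNA is only part of its regulation. Its probe A_52_P139727 (chr15:80087079-80087138, plus strand, mm9) read 1.2, 1.13, 0.81, 0.89 and 0.57 in HE, against 0.92, 0.43, 1.13, 0.92 and 0.83 in NC. The groups overlapped over nearly their whole range, and the log2 fold change was 0.07 ± 0.16, with a 95% interval from -0.28 to 0.42 (adjusted p = 0.767).

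CBP, the product of Crebbp, is a lysine acetyltransferase that binds phosphorylated CREB. The 2 Crebbp probes that rose both lie on the minus strand of chromosome 16. They are printed here because they were the only coactivator probes called higher in HE.
Crebbp A_51_P448224 (chr16:4085145-4085204, mm9): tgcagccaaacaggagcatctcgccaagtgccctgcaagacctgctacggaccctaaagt
Crebbp A_52_P239850 (chr16:4084795-4084854, mm9): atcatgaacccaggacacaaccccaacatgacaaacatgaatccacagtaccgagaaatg
A_51_P448224 read -3.28, -3.47, -3.51, -3.51 and -3.61 in HE, against -3.99, -3.99, -4.16, -3.77 and -4.23 in NC. Every HE array lay above every NC array (0.55 ± 0.11, 1.47-fold, adjusted p = 0.0112), and the call held without each array in turn (0.50 to 0.62). A_52_P239850 read -2.32, -2.37, -2.20, -2.20 and -2.11 in HE, against -2.45, -2.54, -2.87, -2.48 and -2.94 in NC (0.42 ± 0.12, adjusted p = 0.0329), again without overlap, but its call was lost without HE 1, HE 3, HE 4, HE 5, NC 2, NC 3 or NC 5 (0.35 to 0.45). The brightest Crebbp probe, A_51_P518851 (chr16:4083181-4083240), designed on a cDNA record, read 1.04, 0.91, 1.24, 0.91 and 0.77 in HE, against 0.90, 0.65, 0.66, 0.91 and 0.60 in NC, and did not pass (0.23 ± 0.11, adjusted p = 0.164). Its change against the other Crebbp probes was -0.26 and did not pass (adjusted p = 0.0844). Within slide 2 the 3 probes differed by 0.85, 0.60 and 0.38 (A_51_P448224, A_52_P239850, A_51_P518851), with adjusted p of 0.0754, 0.147 and 0.354 with slide as a block. Under normexp the first pair turned to -0.64 and -0.26 while A_51_P518851 stayed positive, at 0.30.

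EP300 is the paralogue of CBP and acetylates many of the same histone residues. Its brightest probe, A_52_P411601 (chr15:81481567-81481626, plus strand, mm9), read -0.60, -0.60, -0.57, -0.62 and -0.61 in HE, against -0.31, -0.30, -0.77, -0.38 and -0.57 in NC. The HE arrays spanned a far narrower range than the NC arrays and lay inside it (-0.13 ± 0.10, adjusted p = 0.39). A_52_P179662 did not pass either (0.18 ± 0.11, adjusted p = 0.272). The probe A_51_P142128, designed on a cDNA record, was well above background on 2 HE and 3 NC arrays only. It read -8.23, -6.00, -8.19, -6.90 and -6.04 in HE, against -4.82, -4.96, -6.15, -6.24 and -5.03 in NC, and its fitted fold change of -1.63 ± 0.52 (adjusted p = 0.0463) rests on signals near background and was lost without HE 1, HE 3, HE 4, NC 1, NC 2 or NC 5 (-1.68 to -1.34). Within slide 2 it was -2.08 (adjusted p = 0.294 with slide as a block). It passed in its change relative to the other Ep300 probes (-1.66, adjusted p = 0.046), as did A_52_P179662 in the opposite direction (1.06, adjusted p = 0.0276), and each of these comparisons includes the dim probe. The first was lost without any of 6 arrays (HE 1, HE 3, HE 4, NC 1, NC 2 or NC 5, at -1.71 to -1.35) and the second without any of 5 (HE 1, HE 3, NC 1, NC 2 or NC 5, at 0.88 to 1.04), and with slide as a block their adjusted p was 0.45 and 0.39. The probe A_51_P304029 was well above background on no array.

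Averaging all entering probes of a gene, in place of its brightest, gave 3 member calls in place of 2. Over all 20086 genes 4377 then passed, against 4038 with the brightest probe. Atf1 (0.31, adjusted p = 0.0291) and Crebbp (0.40, adjusted p = 0.0217) then passed, Creb1 stayed lower (-0.29, adjusted p = 0.0219), and Crem missed the threshold at 0.45 (adjusted p = 0.0641). With normexp 13 of the 23 probes were negative, against 6 with the processed signal, while the median of all probes moved to -0.41. Under normexp 2 probes passed as higher, Crem A_52_P391095 (0.49, adjusted p = 0.0339) and A_52_P460957 (0.36, adjusted p = 0.047), and 4 as lower. Over all tested probes this setting called 7.7% higher and 37.9% lower, so the lower calls do not set the members apart. The lower ones were Creb1 A_52_P174396 (-0.76, adjusted p = 0.028) and A_52_P517730 (-0.90, adjusted p = 0.0347), both well above background on all 10 arrays, and the dim probes Crem A_52_P367026 (-1.43, adjusted p = 0.0348) and Ep300 A_51_P142128 (-1.59, adjusted p = 0.0279). The plot of fold change against signal shows the 3 treatments.

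**Figure D3:**
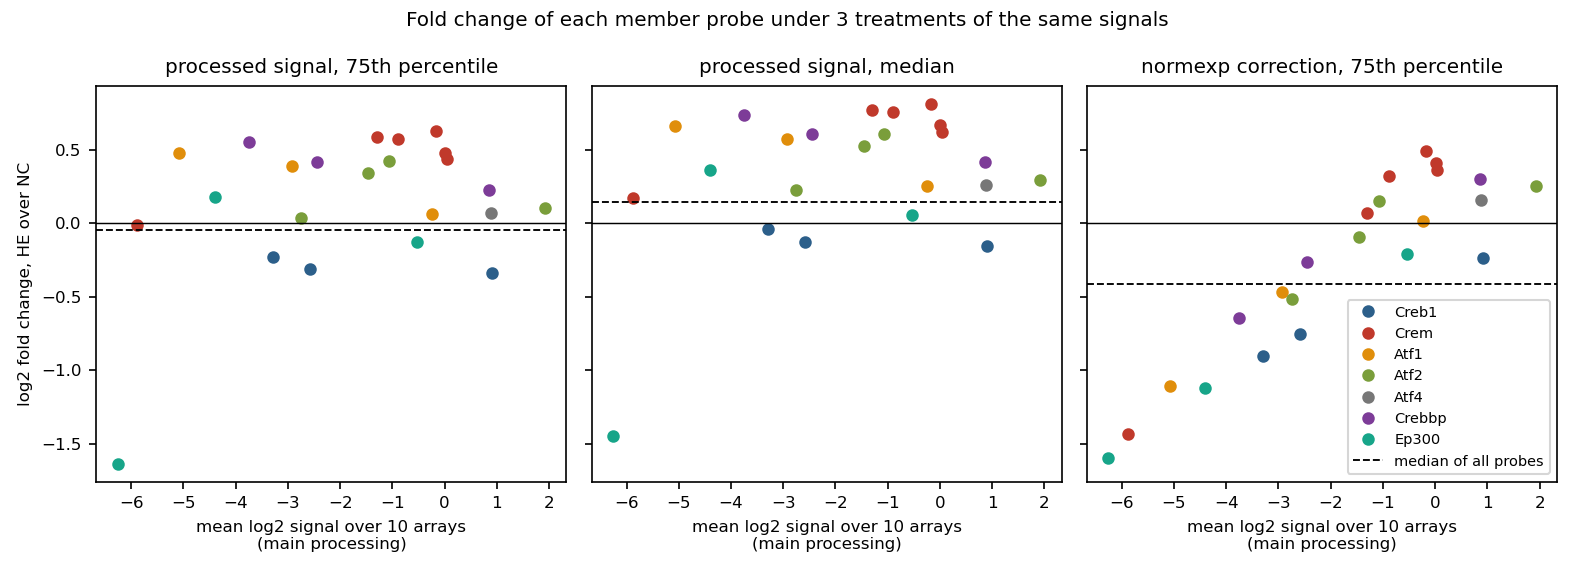
Log2 fold change of HE over NC for the 23 tested probes against their mean log2 signal over 10 arrays, with the processed signal scaled to the 75th percentile (left), the same scaled to the median (middle) and normexp-corrected signals scaled to the 75th percentile (right); dashed lines mark the median of all probes, at -0.04, 0.14 and -0.41. Under normexp the dimmer probes of Atf1, Crebbp and Atf2 move below 0, while the brightest Crem probes stay above it. The brightest Creb1 probe stays below 0, at -0.24, but above the dashed line.

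Genes around the family were described through 6 lists, beside 6.82% higher and 13.3% lower over all genes. Of 19 other CREB, ATF and CRTC genes, 0 rose and 4 fell in HE (7 with an unadjusted p under 0.05 in limma). Crebl2, a CREB-like regulator, fell by 0.84 (adjusted p = 0.0103), with means of 2.01 ± 0.16 in HE and 2.85 ± 0.30 in NC. Creb3l2, a membrane-bound relative, fell by 0.55 (adjusted p = 0.0108), and Crebrf, which in mammals restrains CREB3, fell by 0.46 (adjusted p = 0.0333), a call lost without HE 1, HE 2, HE 4, HE 5, NC 2, NC 3 or NC 5 (-0.48 to -0.37). Within slide 2 these genes differed by -1.05, -0.51 and -0.82 (Crebl2, Creb3l2 and Crebrf). With slide as a block their adjusted p was 0.112, 0.134 and 0.0926. Crebl2 also missed the threshold without NC 1, NC 2 and NC 4 (-0.71, adjusted p = 0.0607). Crebrf missed it with median scaling (-0.28, adjusted p = 0.163). The list median was -0.04, close to that of all genes, and turned to 0.18 after quantile normalization, where 0 rose and 3 fell.

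Of 33 kinases and adenylyl cyclases upstream of CREB, 9 rose and 1 fell, with a list median of 0.29. Map2k1, which encodes the kinase MEK1, rose by 0.59 ± 0.11 (adjusted p = 0.0127), with means of 3.66 ± 0.23 in HE and 3.08 ± 0.08 in NC. Camkk2, which activates CaMKIV and CaMKI, rose by 1.13 ± 0.25 (adjusted p = 0.0181), with means of 3.8 ± 0.10 in HE and 2.68 ± 0.61 in NC. Adcy8, a calcium-stimulated adenylyl cyclase, fell by 1.16 (adjusted p = 0.0131), with means of -2.22 ± 0.44 in HE and -1.06 ± 0.33 in NC. Rps6ka2, Adcy2, Camk1g, Adcy3, Rps6ka3 and Rps6ka4 also rose, by 0.43 to 0.81. With slide as a block none of the 33 passed (13 with an unadjusted p under 0.05), and without NC 1, NC 2 and NC 4 there were 5 higher and 0 lower. Over all 20086 genes 185 passed with slide as a block (4716 with an unadjusted p under 0.05). Without NC 1, NC 2 and NC 4, 1919 passed, of which 873 were higher.

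Of 21 inhibitors of cAMP and CREB signalling, 1 rose and 1 fell. Pde7a, a cAMP phosphodiesterase, fell by 0.99 (adjusted p = 0.00876), with means of -0.30 ± 0.27 in HE and 0.69 ± 0.26 in NC. With slide as a block it was -0.71 (adjusted p = 0.231), and with slide and high Xist together -0.14 (adjusted p = 0.906). Pkig, an inhibitor of protein kinase A, rose by 0.51 ± 0.14 (adjusted p = 0.0359), and its call was lost without HE 1, HE 3, HE 5, NC 4 or NC 5 (0.41 to 0.51).

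Of 33 measured CREB target genes, 3 rose and 0 fell, with 25 of positive sign and a list median of 0.40, against -0.04 over all genes. Nptx2, a secreted synaptic pentraxin, rose by 1.6 ± 0.26 (adjusted p = 0.0082), with means of 0.95 ± 0.20 in HE and -0.65 ± 0.59 in NC. Egr3, an activity-induced zinc finger factor, rose by 1.66 ± 0.36 (adjusted p = 0.0162), with means of 1.78 ± 0.30 in HE and 0.12 ± 0.83 in NC. Sst, the interneuron peptide whose rat promoter was used to define the element, rose by 0.91 ± 0.18 (adjusted p = 0.0138), with means of 4.85 ± 0.20 in HE and 3.95 ± 0.38 in NC. Within slide 2 these were 1.95, 2.92 and 1.42 (Nptx2, Egr3 and Sst), and with slide as a block Egr3 (adjusted p = 0.0488) and Sst (adjusted p = 0.0293) passed while Nptx2 did not (adjusted p = 0.0898). Slide 2 alone holds 1 control array, NC 5, which is too few to set single genes apart. With slide and high Xist together none of the 3 passed in limma. Their adjusted p was 0.366, 0.24 and 0.148 (Nptx2, Egr3 and Sst), and only 3 of all 20086 genes passed in that fit. The list median was 1.07 within slide 2, with 29 of 33 positive, where the median of all probes was -0.12. With slide and high Xist together the list median was 0.47, with 23 positive and 0 called (7 at an unadjusted p under 0.05 in limma). There the median of all probes was -0.05, and 2903 of all genes had an unadjusted p under 0.05. Hippocampal neuron markers were also higher in summed signal in HE, as given above. On NC 5, the only control on slide 2, their sum was the lowest of all arrays (51.0). The part of tissue content in these values was not tested.

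Of 30 ATF4 target genes, 1 rose and 3 fell. Mthfd2, a mitochondrial folate enzyme, fell by 0.89 (adjusted p = 0.0103), Psat1, of serine synthesis, fell by 0.40 (adjusted p = 0.0216), and Phgdh, in the same pathway, fell by 0.38 (adjusted p = 0.0217). Ppp1r15a, which directs the dephosphorylation of eIF2alpha, rose by 0.39 ± 0.09 (adjusted p = 0.0188), but was at -0.32 under normexp. The Psat1 call was lost without HE 1 (-0.39, adjusted p = 0.0523), with the replicate block (adjusted p = 0.0542), with normexp (-0.25, adjusted p = 0.158) and with median scaling (-0.21, adjusted p = 0.176). With slide as a block 0 of the 30 genes passed in limma (6 at an unadjusted p under 0.05), where 185 of all 20086 genes passed (4716 at an unadjusted p under 0.05).

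Of 12 other lysine acetyltransferases, 0 rose and 2 fell (3 with an unadjusted p under 0.05 in limma). Kat2b, which encodes the CBP-associated factor PCAF, fell by 1.25 (adjusted p = 0.00247), with means of -2.08 ± 0.17 in HE and -0.83 ± 0.23 in NC, and Taf1, the largest TFIID subunit, fell by 0.52 (adjusted p = 0.0194). Within slide 2 Kat2b differed by -1.19 (adjusted p = 0.0651 with slide as a block) and Taf1 by -0.28 (adjusted p = 0.491). Taf1 also missed the threshold with median scaling (-0.34, adjusted p = 0.0698) and as the mean of its probes (-0.25, adjusted p = 0.0504).

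**Figure D4:**
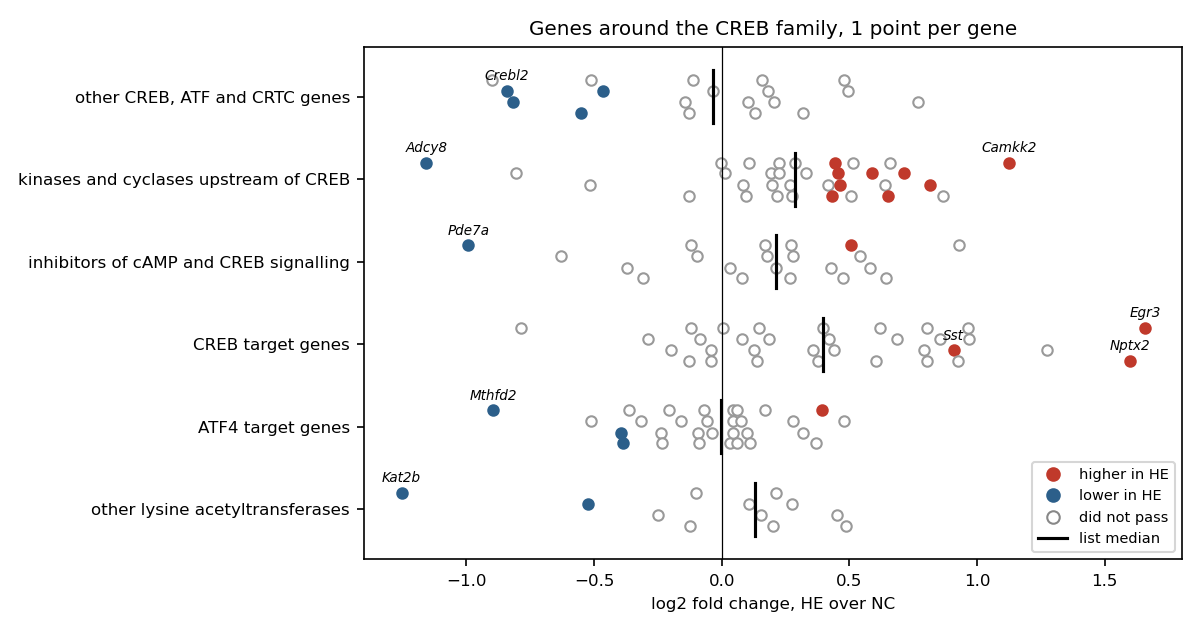
Log2 fold change of HE over NC for each measured gene of the 6 lists around the CREB family, 1 point per gene, with filled points for genes that passed and a bar at each list's median. The kinases and cyclases (median 0.29) and the CREB target genes (median 0.40) lie mostly right of 0, and the ATF4 target genes (median -0.004) lie on both sides.

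Across the 10 arrays, after each group's mean was taken off, the genes that followed the brightest Creb1 probe most closely were Htr3a, a serotonin receptor subunit (Pearson r = 0.97), Sox17 (0.97) and Ubash3a (0.96). For the brightest Crem probe they were Fastkd5 (0.96), Hspa5, the endoplasmic reticulum chaperone BiP (0.95), and Snai3 (0.95). They were picked as the largest r in a search of up to 20086 genes, where large values can arise from the search alone. These are descriptions over 10 arrays that share slides and scaling. Of the 6 genes, Snai3 alone passed between groups (1.96, adjusted p = 0.0364), and it was at -1.17 under normexp.

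Promoters of the members were read from RefSeq (GRCm38.p6, windows of 300 bases around the start site), for 6 of the 7 measured genes, without Crem. The full element TGACGTCA was in none of the 6, and 1.79% of 32851 promoters in the table held it. The shorter core TGACG, searched on both strands, was in 20.8% of promoters and in those of Atf1 and Atf4, each given with the core in capitals, written as CGTCA where it lies on the other strand.
Atf1, chr15:100227757-100227786, plus strand: gtgaccacgcggTGACGcagcacgccggcg
Atf4, chr15:80255160-80255189, plus strand: ttcggctttgacCGTCAgagctttggctag
Atf4, chr15:80255204-80255233, plus strand: cttgtaagacaccggaaattCGTCAacgag
Creb1, with 2 probes lower in HE, and Crebbp, with 2 probes higher, held neither in this window.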

How the data were processed

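Hippocampal RNA of 5 HE and 5 NC offspring was read on 1-colour Cy3 arrays. Spots were quantified in Agilent Feature Extraction, version 10.7 per the submitters' processing notes and 10.7.3.1 per the file headers. The deposited scanner files hold spot intensity on a linear scale, background-subtracted and detrended within each array per the file headers. A value table of the whole series, deposited by the authors with no stated method, is on a log2 scale. Its values matched quantile-normalized log2 processed signals (r = 1 on each array, medians 7.0334 to 7.0337), with no centring seen, and served as an alternative.

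Processed signals were divided by the array's 75th percentile over non-control probes and put on the log2 scale. Outlier-flagged spots (68 to 129 per array) were dropped, 0 spots were saturated, and spots of a probe were averaged. The tests were two-sided limma fits (lmFit, eBayes; limma 3.58.1, R 4.3.3), with Benjamini-Hochberg adjustment over all entering probes or genes and a threshold of 0.05. Each probe was also tested against the mean of its gene's other probes, within arrays; differences from Creb1 were taken within arrays after the calls were known and are given without a test. The number of arrays limits the precision. No 2 arrays of a group were duplicates (SD of the log2 difference 0.435 to 0.704).

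The members and gene lists were chosen with earlier results of these data known. Named were all members, the 3 genes of smallest p among those passing in each of the 6 lists (further genes, such as Phgdh and the remaining kinases, were named after their values were seen), and the 3 genes most like each called member. Alternatives tried were a block for slide (fixed or random) or for replicate number, slide 2 by itself, normexp with an offset of 50, quantile normalization, median scaling, the value table, other filters, a robust trend, the mean of a gene's probes, and each array left out. Chosen after seeing the data were leaving out NC 1, NC 2 and NC 4 together, the 7 arrays with high Xist, and high Xist as a covariate with or without slide. Probe positions are those in the files (mm9). An mm9 gene annotation was not used, so that exon or UTR status is not given. Values of some single genes of the lists are not reported here.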

Additional observations from a re-analysis of the deposited data

Results flagged for a closer look

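In 2 of the 50 sets of 5 arrays examined (each of 25 probes in each group), 1 array stood apart from the other 4 by more than Dixon's 95% critical value of 0.71; chance gives about 1 in 20. The Atf2 probe A_52_P86665 read -4.61 on HE 1, while HE 2 to HE 5 spanned -9.35 to -8.65. It was well above background on this array only, and the NC arrays lay at or below -6.43, so that the signal appeared in a probe that the comparison did not use. The Atf2 probe A_51_P388872 read -0.68 on HE 3, while its HE group otherwise spanned -0.96 to -0.88; the groups did not overlap without it either.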

How the results depend on the processing

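Over the alternatives, 419 of 596 member probe values kept their sign and side of the threshold, 139 kept their sign but no longer passed, 11 newly passed and 27 turned sign, most of these from values that did not pass; the causes were not tested beyond what each alternative changes. Genes passing numbered 4038 (1370 higher), against 185 with slide as a block, 0 on slide 2 alone (7083 at an unadjusted p under 0.05 in limma), 8748 with normexp, 1932 to 4180 with 1 array left out, 1919 without NC 1, NC 2 and NC 4, 77 on the high-Xist arrays and 3 with slide and Xist. Probes passing numbered 7109, against 242, 0 (10915 unadjusted), 14128, 3755 to 7411, 2843, 87 and 0 (4142 unadjusted) in the same order. Member probes passing numbered 13, against 0, 0, 6, 4 to 13, 2, 0 and 0 in that order (unadjusted 5, 8, 12, 15 to 16, 8, 12 and 1), and 8 with no filter. Member genes passing numbered 2, against 0, 0, 1, 1 to 2, 0, 0 and 0 (unadjusted 1, 1, 4, 2 to 3, 2, 2 and 0), and 1 with the replicate block, with median scaling and with no filter. Probes that differed from their gene's other probes numbered 3605, against 33 with slide as a block, 6688 with slide as a random block, 0 on slide 2 (4169 unadjusted), 1188 to 4690 with 1 array left out, 14, 11 and 0 (1018 unadjusted) in the last 3 settings.

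Higher calls made up 35.7% of called probes, 48.4% after quantile normalization, 64.5% with median scaling and 16.9% with normexp. Under normexp 7 member probes turned sign: Atf1 A_52_P228079 (-0.47) and A_52_P228081 (-1.11), Atf2 A_52_P130596 (-0.091) and A_52_P116253 (-0.52), Crebbp A_51_P448224 (-0.64) and A_52_P239850 (-0.26), and Ep300 A_52_P179662 (-1.12). So did Ppp1r15a (-0.32), Snai3 (-1.17) and Hspa5 (0.047). Changes relative to the gene's other probes also turned under normexp, for Atf1 A_52_P228081 (-0.88) and A_52_P32756 (0.80), Atf2 A_52_P130596 (-0.053) and A_52_P272547 (0.41), Creb1 A_51_P101621 (0.59) and A_52_P517730 (-0.40), Crebbp A_51_P448224 (-0.66), A_51_P518851 (0.76) and A_52_P239850 (-0.094), Crem A_52_P460957 (0.39) and Ep300 A_52_P179662 (-0.22).

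With slide and Xist together, Atf1 A_52_P228081 (-0.29), Atf2 A_52_P116253 (-0.21), Crebbp A_51_P518851 (-0.025), Fastkd5 (-0.56) and Htr3a (0.055) turned, as did, relative to other probes, Atf1 A_52_P228081 (-0.47) and A_52_P32756 (0.37), Atf2 A_52_P272547 (0.044), Creb1 A_51_P101621 (0.11) and A_52_P517730 (-0.037) and Crem A_52_P460957 (0.21). With slide as a block or slide 2 alone, Hspa5 (0.051), Sox17 (-0.098) and Xist (7.95) turned, and relative to other probes Atf1 A_52_P228081 (-0.18) and Crebbp A_52_P239850 (-0.019). Without NC 1, NC 2 and NC 4, Atf4 (-0.061), Ep300 A_52_P411601 (0.077), Fastkd5 (-0.0029), Sox17 (-0.081), Ttr (-0.73) and Ubash3a (-0.059) turned, and relative to other probes Atf1 A_52_P228081 (-0.009), Creb1 A_52_P174396 (0.030) and Crem A_52_P460957 (0.027). The dim Crem A_52_P367026 was positive with slide as a random block (0.0058), quantile normalization (0.31), median scaling (0.17), the value table (0.31), the high-Xist arrays (0.22) and Xist as a covariate (0.0068). With median scaling Ep300 A_52_P411601 (0.058) and Hspa5 (0.12) turned, with the mean of a gene's probes Fastkd5 (-0.11) and Sox17 (-0.14), on the high-Xist arrays Hspa5 (0.13), and with Xist as a covariate Sox17 (-0.012). Relative to other probes, quantile normalization and the value table turned Creb1 A_52_P174396 (0.020 in both) and Crem A_51_P423976 (-0.047 and -0.048), the high-Xist arrays Creb1 A_52_P174396 (0.017) and Crebbp A_52_P239850 (-0.13), Xist as a covariate Crebbp A_52_P239850 (-1e-04), and no filter Atf2 A_52_P272547 (0.025). With only probes well above background on all 10 arrays, Crem A_51_P423976 (-0.073, relative to the other Crem probes) and Ep300 A_52_P411601 (-0.30, relative to the 1 remaining probe) turned. With 1 array left out, sign turned within the ranges of Atf2 A_52_P116253 (-0.098 to 0.19), Atf4 (-0.031 to 0.16), Crem A_52_P367026 (-0.19 to 0.15), Hspa5 (-0.13 to 0.021), Sox17 (-0.058 to 0.14) and Ubash3a (-0.059 to 0.14), and, relative to other probes, Crebbp A_52_P239850 (-0.048 to 0.081) and Crem A_52_P460957 (-0.046 to 0.029).

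Same-numbered arrays deviated together little (r of -0.07, -0.02, 0.15, 0.11 and -0.04), and only for replicate 3 was the same number the best match. Such correlations cannot tell whether the numbers pair the animals, because other differences between arrays also enter them. With the replicate block 9 member probes passed, 8 higher and 1 lower, and Creb1 A_51_P101621 had an adjusted p of 0.0503. Probes near background limit the depth: 2 of 25 did not enter.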
